A study of Mus musculus with 6 samples.

Results

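Metallothioneins and the genes that move zinc, copper and manganese across liver cell membranes were followed in mouse liver through 9 genes, Mt1, Mt2, Mtf1, Slc30a1, Slc30a10, Slc39a14, Slc39a5, Atp7b and Cp. They were chosen by gene symbol, and each matched 1 of the 56674 rows of the count table. The liver RNA came from male C57BL/6 mice, a common inbred strain, reared for 71 weeks. The PB-MP group (3 libraries) had chow containing polypropylene black microplastic, and the control group (3 libraries) had normal chow, so diet is the labelled difference, and the amount of plastic in the chow is not given in the labels. The comparison asks whether long dietary exposure to this plastic altered liver expression of metal-handling genes. Values are raw read counts per gene from poly(A)-selected libraries, printed mostly as CPM, the usual depth-normalised read count, with library sizes scaled by TMM. Nothing in the labels ties the libraries to separate mice, and a p-value here covers the spread among these libraries, some of which may be technical.

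Metallothioneins are small cysteine-rich proteins that bind zinc and copper, buffer free metal and protect against cadmium. In the liver the genes Mt1 and Mt2 respond to zinc through the zinc-sensing factor MTF1, which binds metal response elements in their promoters, and they also respond to glucocorticoids and inflammatory cytokines. Zinc leaves the cytoplasm through Slc30 carriers and enters it through Slc39 carriers, some of which carry manganese, while the liver exports copper into bile through the ATPase ATP7B and into blood bound to ceruloplasmin, the product of Cp.

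None of the 9 genes differed between PB-MP and control livers past an adjusted p below 0.05 in the quasi-likelihood test of edgeR with Benjamini-Hochberg adjustment over all 17871 genes tested. The share called over all genes was also 0%. The smallest adjusted p was 0.342 among the 9 genes and 0.124 over all genes. Both metallothioneins averaged higher in PB-MP livers, with overlapping groups and a spread of more than 10-fold between libraries. Mtf1 and Slc39a5 were lower in every PB-MP library than in any control library, as were 8.49% of all genes tested. Mtf1 and Slc39a5 were also the only 2 of the 9 with an unadjusted p below 0.05, a limit that 12.1% of all genes passed. By DESeq2, which called 2.46% of the genes with an adjusted p, none of the 9 was called. Of the 9, 2 had an unadjusted p below 0.05 by DESeq2, Mt1 and Slc39a5. In that setting 2563 genes passed this limit, which is 4.52% of all rows, rows without reads included.

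Promoter sequence is shown for Mt1, Mt2 and Slc30a1, the textbook MTF1 targets among the 9 genes. It was searched for the core letters of the metal response element. The windows are from RefSeq on the build GRCm38.p6, run 5′ to 3′ on the plus strand from 250 bases before the transcription start to 30 bases after it, and were matched by symbol. Capitals mark the metal response element core, TGCACNC or TGCGCNC, or its reverse complement. The windows lie at chr8:94178839-94179118 for Mt1, chr8:94172368-94172647 for Mt2 and chr1:191906531-191906810 for Slc30a1.
Mt1: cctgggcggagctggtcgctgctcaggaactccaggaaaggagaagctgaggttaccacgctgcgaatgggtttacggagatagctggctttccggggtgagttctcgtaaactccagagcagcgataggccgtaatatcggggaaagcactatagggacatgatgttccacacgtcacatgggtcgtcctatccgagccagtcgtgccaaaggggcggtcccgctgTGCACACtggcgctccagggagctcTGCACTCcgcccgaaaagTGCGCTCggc
Mt2: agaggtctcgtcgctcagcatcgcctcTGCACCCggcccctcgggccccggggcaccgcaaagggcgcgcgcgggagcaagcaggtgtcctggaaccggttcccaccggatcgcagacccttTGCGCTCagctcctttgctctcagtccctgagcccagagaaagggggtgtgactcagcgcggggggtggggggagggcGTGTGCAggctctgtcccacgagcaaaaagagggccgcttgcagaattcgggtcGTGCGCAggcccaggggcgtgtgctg
Slc30a1: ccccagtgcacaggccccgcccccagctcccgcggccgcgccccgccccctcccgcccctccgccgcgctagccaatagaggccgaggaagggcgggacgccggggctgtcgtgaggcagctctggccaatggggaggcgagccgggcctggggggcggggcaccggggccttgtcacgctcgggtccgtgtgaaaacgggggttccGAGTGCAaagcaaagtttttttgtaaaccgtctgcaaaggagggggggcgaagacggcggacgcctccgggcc

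In these letters Mt1 has 3 cores, all on the plus strand, starting at positions -23, 3 and 21. Position 1 is the first base of the transcript as RefSeq annotates it, and -1 the base before it. Sequence outside the windows was not searched, so other cores may lie beyond them. Whether any core acts on its gene was not tested. Mt2 has 4 cores, on the plus strand at -223 and -128 and on the minus strand at -50 and 5. Slc30a1 has a minus-strand core at -43, and another starts at 31, just past the end of the stretch shown. Over 32851 RefSeq promoter windows of 300 bases (250 before and 50 after the start), 25.7% held at least 1 core on either strand, 7.11% at least 2, 1.97% at least 3 and 0.517% at least 4. Windows were found for 8 of the 9 genes, and Slc39a14 is named only. Slc30a10 has 3 cores, of which those at -233 and -232 overlap on opposite strands and the other is at -73. Atp7b has 1 core, at -157. One of the windows of Slc39a5 has 1 core, at -129, and the windows of Cp and Mtf1 have none of these letters.

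Compared per length (CPM per kilobase of the principal transcript), the highest of the 9 genes were Cp and Mt1. Mt1 stood at 180 ± 146 in PB-MP and 70.4 ± 49.0 in control livers (SD, n = 3 each), and Cp at 170 ± 21.2 in PB-MP and 179 ± 6.78 in control livers. The means of these 2 neighbours differed by less than the SD of Mt1 in PB-MP livers and by more in control livers. Mt2 followed at 95.4 ± 81.4 CPM per kilobase in PB-MP and 27.0 ± 20.8 in control livers. A wide step below, Slc30a10 had 6.09 ± 0.230 in PB-MP and 6.01 ± 1.86 in control livers. Slc30a1 was close to it, within the SD of Slc30a1 in PB-MP livers and within that of Slc30a10 in control livers, with 5.63 ± 1.56 CPM per kilobase in PB-MP and 6.10 ± 0.393 in control livers. Slc39a14 had 4.91 ± 2.58 in PB-MP and 2.45 ± 1.97 in control livers. Slc39a14 and Atp7b, at 3.85 ± 1.17 CPM per kilobase in PB-MP and 3.80 ± 0.334 in control livers, lay within the SD of Slc39a14 of each other. Mtf1, which stood between Atp7b and Slc39a14 in control livers and below both in PB-MP livers, was low, with 2.0 ± 0.118 in PB-MP and 2.61 ± 0.104 in control livers. Slc39a5 was lowest in both groups, at 0.284 ± 0.0660 CPM per kilobase in PB-MP and 0.727 ± 0.432 in control livers. These per-length values depend on the transcript chosen, since the annotation behind the counts is not given in the sources used here.

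**Figure D1:**
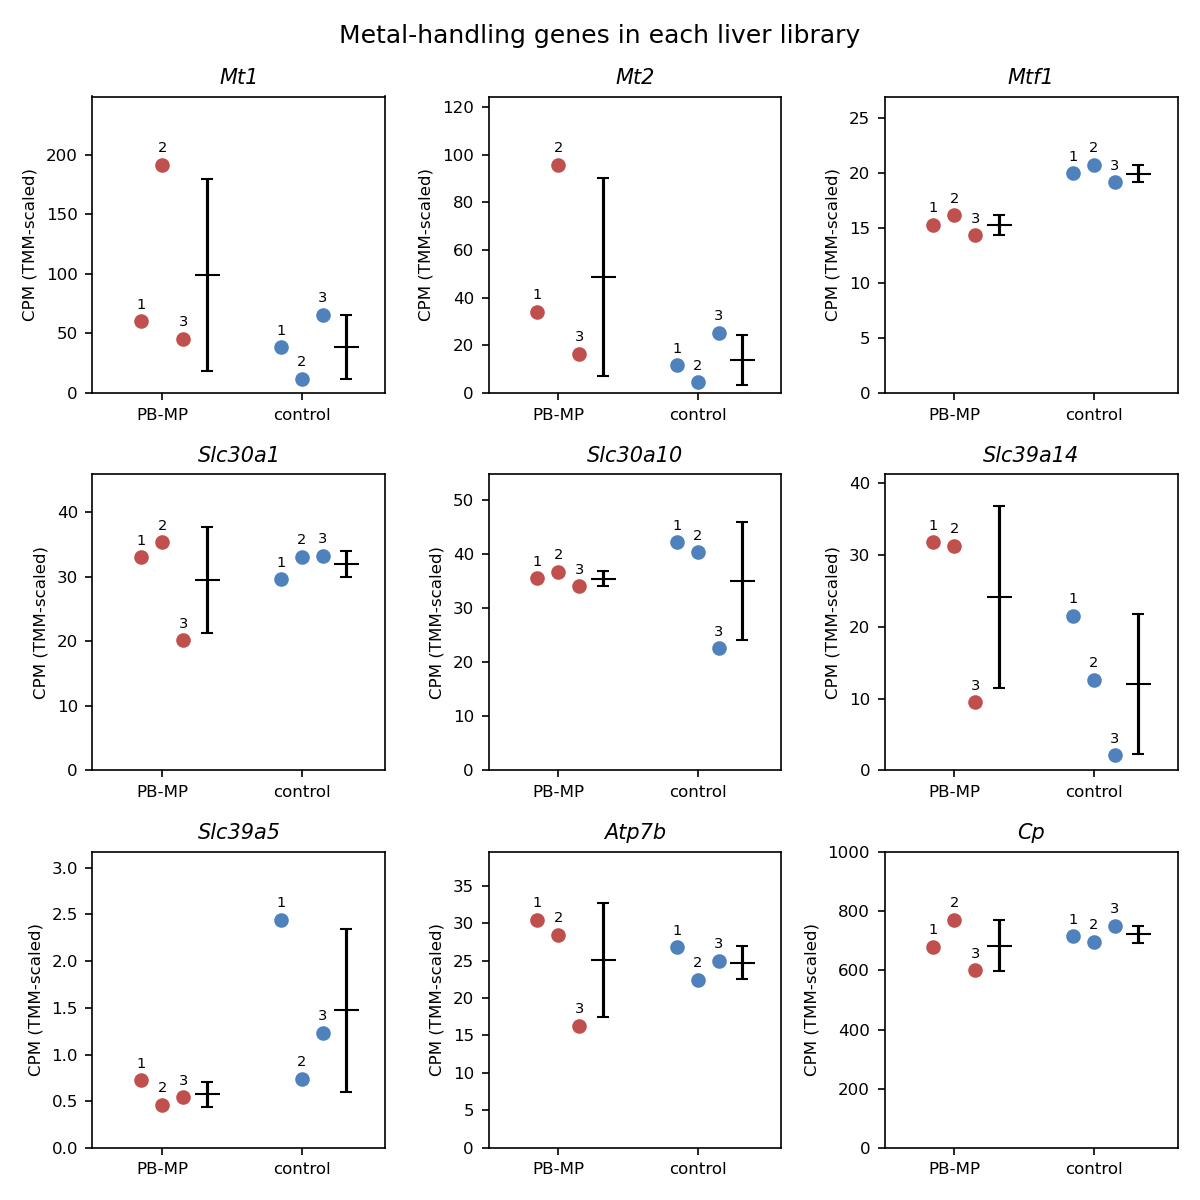
TMM-scaled CPM (vertical axes, each starting at 0) of the 9 genes in the PB-MP libraries (red) and the control libraries (blue), with replicate numbers above the points and the mean ± SD of each group as a bar. Mtf1 and Slc39a5 are lower in PB-MP libraries without overlap, as are 8.49% of all genes tested. Mt1, Mt2 and Slc39a14 have the widest scatter within groups.

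The metallothionein Mt1 had 59.9, 191 and 45.5 CPM in PB-MP replicates 1, 2 and 3, against 38.3, 11.9 and 65.7 CPM in control replicates 1, 2 and 3. PB-MP replicate 2 was the highest and control replicate 2 the lowest of the 6, and the groups overlapped, since control replicate 3 exceeded PB-MP replicates 1 and 3. The means were 98.9 ± 80.3 CPM in PB-MP and 38.6 ± 26.9 CPM in control livers (SD, n = 3 each). This gave a log2 fold change of 1.36 ± 0.73 (SE, 95% interval -0.36 to 3.07), with an adjusted p of 0.496 by edgeR. Without PB-MP replicate 2 the estimate was 0.45, and without control replicate 3 it was 1.96.

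Mt2, the companion gene that lies beside Mt1 and encodes a protein of the same kind, had 34.1, 95.7 and 16.4 CPM in PB-MP replicates 1, 2 and 3, against 11.6, 4.40 and 25.3 CPM in control replicates 1, 2 and 3. The same libraries were the highest and the lowest as for Mt1, and the groups overlapped through control replicate 3 and PB-MP replicate 3. Mean levels were 48.7 ± 41.6 CPM in PB-MP and 13.8 ± 10.6 CPM in control livers (SD, n = 3 each). PB-MP over control, the log2 fold change of Mt2 was 1.82 ± 0.79 (SE, 95% interval -0.04 to 3.68), with an unadjusted p of 0.0544 and an adjusted p of 0.422 by edgeR. It was 0.87 without PB-MP replicate 2 and 2.58 without control replicate 3. By limma-voom with library quality weights the Mt2 estimate was 1.65, with an unadjusted p of 0.0441 and an adjusted p of 0.203. The Mt1 estimate with these weights was 1.11, with an unadjusted p of 0.132. In that setting 23.4% of all genes had an unadjusted p below 0.05.

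Both metallothioneins varied more within groups than most genes. Between the highest and lowest library of a group, Mt1 differed 4.20-fold in PB-MP and 5.54-fold in control livers, and Mt2 differed 5.82-fold in PB-MP and 5.74-fold in control livers. Among the 12545 genes averaging 1 CPM or more, 95.9% had a narrower range than Mt1 in PB-MP and 95.8% in control livers. For Mt2 these shares were 96.9% in PB-MP and 96.0% in control livers. Over all 6 libraries the highest Mt1 value was 16.1 times the lowest, and the highest Mt2 value was 21.7 times the lowest.

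The pair moved together across libraries. Centred on their own means, the log2 profiles of Mt1 and Mt2 lay 0.304 apart (root mean square distance over 6 libraries), and each was the other's nearest neighbour among 8422 genes averaging 5 CPM or more. Each profile's own root mean square spread was 1.19 for Mt1 and 1.37 for Mt2. The ratio of Mt1 to Mt2 counts was 1.76, 2.0 and 2.77 in PB-MP replicates 1, 2 and 3, against 3.29, 2.69 and 2.60 in control replicates 1, 2 and 3. Mt1 thus had more reads than Mt2 in each library, and the ratios of the groups overlapped. Summed, the pair took 94.1, 287 and 62.0 CPM in PB-MP replicates and 49.99, 16.3 and 91.0 CPM in control replicates. The remaining family members were at or near 0: Mt4 had no reads in any library, and Mt3 had 4 reads in control replicate 3 and none elsewhere. A count of 0 is compatible with up to 3 reads, which is 0.0285 to 0.0495 CPM in these libraries, counting error only.

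The highest and the lowest metallothionein levels were both in libraries with a large share of ribosomal RNA. PB-MP replicate 2, the highest for Mt1 and Mt2, had 9.47% of its reads on ribosomal RNA rows. Control replicate 2, the lowest for both, had 11.3%, while the other 4 libraries had 0.707% to 3.64%. Mean shares were 4.61% ± 4.46 in PB-MP and 5.13% ± 5.41 in control livers (two-sided exact permutation p = 0.9, smallest possible 0.1). The part of ribosomal RNA content in the metallothionein levels was not tested.

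Mt2 has a partner on the opposite strand. The annotated antisense gene Gm45774 shares 432 exon bases with Mt2, which is 73.5% of the exon length of Mt2. Gm45774 had 188, 413 and 136 reads in PB-MP replicates 1, 2 and 3, against 16, 4 and 14 reads in control replicates 1, 2 and 3. As CPM these were 2.38, 4.88 and 1.39 in PB-MP libraries and 0.219, 0.0660 and 0.133 in control libraries. Every PB-MP library was above every control library, as for 11.4% of all genes tested. The group means were 2.89 ± 1.80 CPM in PB-MP and 0.140 ± 0.0769 CPM in control livers (SD, n = 3 each).

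The log2 fold change of Gm45774 was 4.34 ± 0.63 (SE, 95% interval 2.85 to 5.84), with an unadjusted p of 2.25e-04 and an adjusted p of 0.207 by edgeR, rank 11 of all genes by p. DESeq2 called it, with a log2 fold change of 4.35 and an adjusted p of 1.44e-09. Over the 17 other ways of processing, DESeq2 included, the adjusted p ran from 1.44e-09 to 0.519 and the estimate from 3.73 to 4.77, and in 16 of them the gene was not called. Gm45774 reads amounted to 6.98%, 5.10% and 8.49% of the Mt2 count in PB-MP replicates 1, 2 and 3, against 1.88%, 1.498% and 0.526% in control replicates 1, 2 and 3. The libraries came from a directional kit per the labels' protocols, but the strand setting of the counting is not given in the sources used here. Reads of Gm45774 and Mt2 over the shared bases therefore cannot be told apart with certainty. Gm45774 was followed after its values were seen, as a gene whose exons overlap those of 1 of the 9. Mt1 shares no stretch of 50 bases with Mt2 or with any other annotated transcript.

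**Figure D2:**
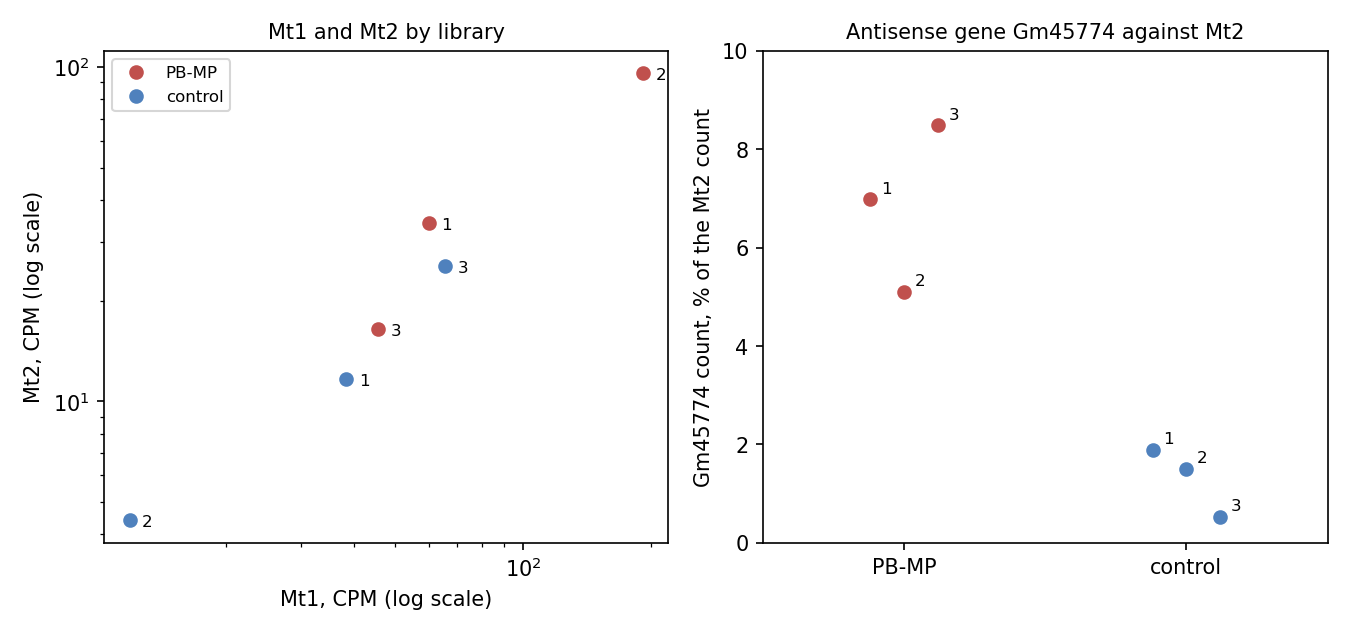
Left, Mt2 against Mt1 in each library (CPM, both axes on a log scale); right, reads of the antisense gene Gm45774 as a percentage of the Mt2 count, with PB-MP libraries in red, control libraries in blue and replicate numbers beside the points. The Mt1 and Mt2 values of the groups overlap along 1 line, with PB-MP replicate 2 at the top and control replicate 2 at the bottom, whereas the Gm45774 share is 5.10% to 8.49% in PB-MP and 0.526% to 1.88% in control libraries.

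Mtf1, the zinc-sensing activator of the metallothionein genes, had 15.3, 16.1 and 14.3 CPM in PB-MP replicates 1, 2 and 3, against 20.0, 20.7 and 19.1 CPM in control replicates 1, 2 and 3. All PB-MP libraries were below all control libraries, as for 8.49% of all genes tested, and both groups were tight. The means were 15.2 ± 0.897 CPM in PB-MP and 19.9 ± 0.796 CPM in control livers (SD, n = 3 each). The log2 fold change was -0.39 ± 0.16 (SE, 95% interval -0.76 to -0.02), with an unadjusted p of 0.0425 and an adjusted p of 0.397 by edgeR. Leaving out any 1 library kept the estimate between -0.43 and -0.35. With scaling by library size only it was -0.17 with an unadjusted p of 0.343, while the median of all genes was 0.23 under that scaling and 0.01 under TMM scaling. Mtf1 was thus below the median gene under either scaling. A change of scaling moves all genes by about the same amount, so this position is not a separate check. Its opposite-strand neighbour 1110065P20Rik shares 316 exon bases with it and had 42.9% to 98.6% as many reads in PB-MP libraries and 49.0% to 57.6% in control libraries. The log2 fold change of 1110065P20Rik was -0.17 ± 0.31 (SE), with an adjusted p of 0.865 by edgeR.

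The share of reads from mitochondrially encoded mRNA differed between the groups in the same libraries, at 9.43% ± 0.704 in PB-MP and 14.6% ± 0.446 in control livers (SD, n = 3 each, two-sided exact permutation p = 0.1, the smallest possible). Without mitochondrially encoded and ribosomal RNA rows in the table, Mtf1 and Slc39a5 again had an unadjusted p below 0.05 by edgeR. So did 12.1% of all genes tested in that setting.

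Slc30a1, the plasma membrane zinc exporter ZNT1, had 33.1, 35.3 and 20.2 CPM in PB-MP replicates 1, 2 and 3, against 29.6, 33.1 and 33.3 CPM in control replicates 1, 2 and 3. PB-MP replicate 3 was the lowest of the 6 and PB-MP replicate 2 the highest, so the control range lay inside that of PB-MP. For Slc30a1 the log2 fold change was -0.12 ± 0.23 (SE, 95% interval -0.66 to 0.43), with an adjusted p of 0.872 by edgeR. Without PB-MP replicate 3 it was 0.093. Its opposite-strand gene 1700034H15Rik, which shares 468 exon bases with it, had 24, 17 and 61 reads in PB-MP replicates and 13, 7 and 1 in control replicates. Every PB-MP library was above every control library in CPM, as for 11.4% of all genes tested. The closest were PB-MP replicate 2 at 0.201 CPM and control replicate 1 at 0.178 CPM. The adjusted p of 1700034H15Rik by edgeR was 0.439.

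Slc30a10 belongs to the same carrier family but is known as an exporter of manganese. It had 35.6, 36.8 and 34.1 CPM in PB-MP replicates 1, 2 and 3, against 42.2, 40.4 and 22.6 CPM in control replicates 1, 2 and 3. The PB-MP libraries were close together, and control replicate 3 was well below the other 5 libraries. Its log2 fold change was 0.02 ± 0.25 (SE, 95% interval -0.57 to 0.60), with an adjusted p of 0.982 by edgeR. Without control replicate 3 it was -0.22.

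Slc39a14, the importer ZIP14 that takes up manganese, zinc and iron and is induced by inflammation, had 31.8, 31.3 and 9.50 CPM in PB-MP replicates 1, 2 and 3, against 21.5, 12.6 and 2.09 CPM in control replicates 1, 2 and 3. PB-MP replicates 1 and 2 were above all control libraries, PB-MP replicate 3 was below 2 of them, and control replicate 3 was the lowest. Means were 24.2 ± 12.7 CPM in PB-MP and 12.1 ± 9.73 CPM in control livers (SD, n = 3 each). On the log2 scale the fold change was 1.0 ± 0.79 (SE, 95% interval -0.87 to 2.87), with an adjusted p of 0.649 by edgeR. It was 0.48 without control replicate 3 and 1.72 without control replicate 1. By limma-voom with library quality weights it was 2.12, with an unadjusted p of 0.0343 and an adjusted p of 0.183. In that setting 23.4% of all genes had an unadjusted p below 0.05. The highest library had 15.2 times the Slc39a14 level of the lowest, and 98.0% of genes had a narrower range among control libraries.

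Slc39a5, the importer ZIP5, faces the basolateral side of intestinal and pancreatic cells. It was the least expressed of the 9 genes, with 57, 39 and 53 reads in PB-MP replicates 1, 2 and 3, against 178, 45 and 130 reads in control replicates 1, 2 and 3. These were 0.722, 0.461 and 0.543 CPM in PB-MP libraries and 2.44, 0.742 and 1.24 CPM in control libraries. All PB-MP libraries were below all control libraries, as for 8.49% of all genes tested. However, PB-MP replicate 1 and control replicate 2 were almost equal. The means were 0.576 ± 0.134 CPM in PB-MP and 1.47 ± 0.874 CPM in control livers (SD, n = 3 each). The fitted log2 fold change was -1.36 ± 0.47 (SE, 95% interval -2.46 to -0.25), with an unadjusted p of 0.0231 and an adjusted p of 0.342 by edgeR. It was -0.80 without control replicate 1 and -1.70 without control replicate 2. Pancreatic acinar markers, listed because the pancreas expresses Slc39a5, summed to 0.0591 to 0.174 CPM in PB-MP and 0 to 0.314 CPM in control libraries, with 4 of the 6 markers, Cpa1, Ctrb1, Pnlip and Prss2, at 0 in all libraries.

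For copper, Atp7b, the ATPase that loads copper into ceruloplasmin and bile, had 30.4, 28.4 and 16.3 CPM in PB-MP replicates 1, 2 and 3, against 26.8, 22.4 and 25.0 CPM in control replicates 1, 2 and 3. PB-MP replicate 3 was the lowest of the 6, and the other PB-MP libraries were the highest. The estimate was a log2 fold change of 0.02 ± 0.25 (SE, 95% interval -0.58 to 0.62), with an adjusted p of 0.983 by edgeR. Without PB-MP replicate 3 it was 0.25.

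Cp, which encodes the copper-carrying ferroxidase of blood plasma, was the most abundant of the 9 in reads. It had 680, 771 and 600 CPM in PB-MP replicates 1, 2 and 3, against 716, 697 and 751 CPM in control replicates 1, 2 and 3. The control libraries lay within the PB-MP range. Its log2 fold change was -0.08 ± 0.17 (SE, 95% interval -0.47 to 0.31), with an adjusted p of 0.881 by edgeR, the narrowest interval but that of Mtf1.

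**Figure D3:**
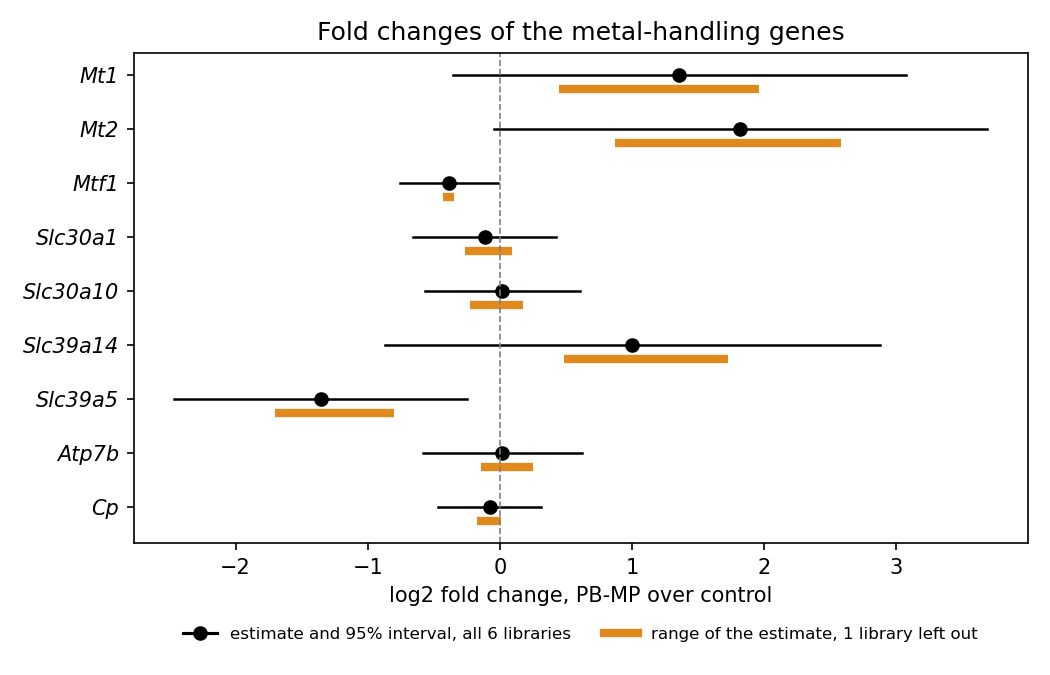
Log2 fold change, PB-MP over control, of the 9 genes (points) with its 95% interval over all 6 libraries (black lines) and the range of the estimate when each library is left out in turn (orange bars). The intervals of Mtf1 and Slc39a5 lie below 0 before adjustment over all genes, those of Mt1, Mt2 and Slc39a14 are wide, and the orange bars of Slc30a1, Slc30a10, Atp7b and Cp cross 0.

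Among the 9 genes, 5 estimates were above 0 and 4 below, with a median of 0.02, beside a median of 0.01 over all genes tested. No gene of the 9 was higher without overlap, against 11.4% of all genes tested, 2 were lower without overlap, against 8.49%, and 7 overlapped. The 95% interval lay within a log2 change of 1 in either direction for 5 of the 9, namely Mtf1, Slc30a1, Slc30a10, Atp7b and Cp, against 45.7% of all genes tested. For Mt1, Mt2, Slc39a14 and Slc39a5 a change of more than 2-fold in at least 1 direction was within the interval. PB-MP replicate 3 was the lowest of its group for 8 of the 9 genes, against 41.5% of all genes tested, and PB-MP replicate 2 was the highest of its group for 6 of the 9, against 31.7% of all genes.

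Genes whose profiles lay nearest to each of the 9 were listed by the same distance. After Mt2, those nearest to Mt1 were Sorbs3 at 0.525, Abl2 at 0.579, Cep170b at 0.630 and Kmt2d at 0.641. After Mt1, those nearest to Mt2 were Sorbs3 at 0.733, Eif4g1 at 0.780, Abl2 at 0.781 and Acbd4 at 0.789. Sorbs3, which encodes the adhesion protein vinexin, had 20.8, 39.2 and 29.6 CPM in PB-MP replicates 1, 2 and 3 and 14.1, 5.43 and 33.8 CPM in control replicates 1, 2 and 3. The gap between Mt1 and Mt2 was thus smaller than that to any other gene in either list.

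The tight profile of Mtf1 lay 0.0470 from Triobp and 0.0590 from Cacfd1. Slc30a1 was nearest to Sash1 at 0.0497 and Ppp1r15b at 0.0535, and Atp7b to Cstf2t at 0.0368 and Phlpp1 at 0.0496. Cp was nearest to Rab13 at 0.0230 and Ubr7 at 0.0375, and Slc30a10 to Fem1a at 0.110 and Zbtb21 at 0.119. Slc39a14 was nearest to the complement gene C4a at 0.399, whose reads may be shared with its near-identical copy C4b, and to Fam193b at 0.50. Slc39a5 was nearest to Me1, which encodes cytosolic malic enzyme, at 0.254, and to Maf1, a repressor of RNA polymerase III, at 0.297. Me1 had 147, 102 and 125 CPM in PB-MP replicates 1, 2 and 3 and 330, 135 and 207 CPM in control replicates 1, 2 and 3. With 6 libraries these distances describe the profiles and carry no test.

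The wider pathways were read from 9 lists of metal and stress response genes. Beside the 9 genes they held 81 others, of which 75 were tested, none was called by edgeR or DESeq2, and the smallest adjusted p by edgeR was 0.247. At an unadjusted p below 0.05 there were 3 higher, Xiap, Slc39a2 and Hmox1, and 1 lower, Sod3. That is 4 of 75, beside 12.1% of all genes tested.

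Of 8 MTF1 targets, Mt1 and Mt2 had estimates above 0 and the other 6 below, with a list median of -0.17. The next smallest p belonged to Gclc, the catalytic subunit of glutamate-cysteine ligase, with a log2 fold change of -0.33 ± 0.20 (SE). Slc30a1, the other textbook zinc-induced target printed above, was at -0.12. The estimates of the metallothioneins and of the other 6 targets had opposite signs, but the interval of each of the 8 included 0. The signs were therefore not settled, and no member of the list was called. The list was also not divided by the direction in which MTF1 acts on each gene. The part of MTF1 in the levels of Mt1 and Mt2 was not tested.

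Of the 10 Slc30 exporters 9 were tested, with 5 estimates above 0, 4 below and a median of 0.02. Of the 14 Slc39 importers 13 were tested, with 4 above 0, 9 below and a median of -0.11. Beside Slc39a5, the importers Slc39a1 and Slc39a9 were lower without overlap, which makes 3 of 13 beside 8.49% of all genes tested, and Slc39a2 was higher without overlap, 1 of 13 beside 11.4%. Slc39a9 had 44.4, 43.6 and 33.3 CPM in PB-MP replicates 1, 2 and 3 and 54.3, 45.4 and 51.4 CPM in control replicates 1, 2 and 3, a log2 fold change of -0.32 ± 0.17 (SE). Slc39a11, with a slightly smaller p by edgeR, had overlapping groups and a log2 fold change of -0.47 ± 0.26 (SE). Slc39a2, named after its values were seen because its mean is only 0.944 CPM, had 1.22, 0.981 and 1.79 CPM in PB-MP replicates and 0.672, 0.792 and 0.209 CPM in control replicates. In the manganese list of 5 genes, which includes Slc30a10 and Slc39a14, the median was 0.03.

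Of 23 copper genes 22 were tested, with 7 estimates above 0, 15 below and a median of -0.12. Xiap, a ubiquitin ligase with known copper chaperone substrates, had 41.7, 34.7 and 42.0 CPM in PB-MP replicates 1, 2 and 3 and 20.9, 27.8 and 16.8 CPM in control replicates 1, 2 and 3. Xiap was higher without overlap, as were 11.4% of all genes tested. Its log2 fold change of 0.86 ± 0.22 (SE) had an unadjusted p of 0.00565 and an adjusted p of 0.247 by edgeR. Sod3, the extracellular copper and zinc superoxide dismutase, had 20.8, 42.0 and 21.2 CPM in PB-MP replicates and 60.1, 36.0 and 55.0 CPM in control replicates, with overlapping groups and a log2 fold change of -0.85 ± 0.33 (SE). Atox1, the chaperone that hands copper to ATP7B, had a log2 fold change of -0.58 ± 0.27 (SE) and overlapping groups.

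Lists for other pathways known to act on metallothionein genes were read in the same way. Their part in the levels of Mt1 and Mt2 was not tested. The glucocorticoid list had a median log2 fold change of -0.09 over 10 genes, with Klf9 at -0.45 ± 0.22 (SE) and Fkbp5 at 0.57 ± 0.31 (SE). Over 16 acute phase genes the median was 0.12, and Saa1, a serum amyloid gene, had 10.5, 8.22 and 14.2 CPM in PB-MP replicates 1, 2 and 3 and 8.48, 6.25 and 7.71 CPM in control replicates 1, 2 and 3. The NRF2 list had a median of -0.21 over 6 genes, and in it Hmox1, the haem-degrading enzyme, had 14.1, 15.1 and 23.1 CPM in PB-MP libraries, against 12.015, 10.9 and 12.3 CPM in control libraries. Hmox1 was higher without overlap, as were 11.4% of all genes tested. It had a log2 fold change of 0.57 ± 0.24 (SE) with an adjusted p of 0.404 by edgeR.

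**Figure D4:**
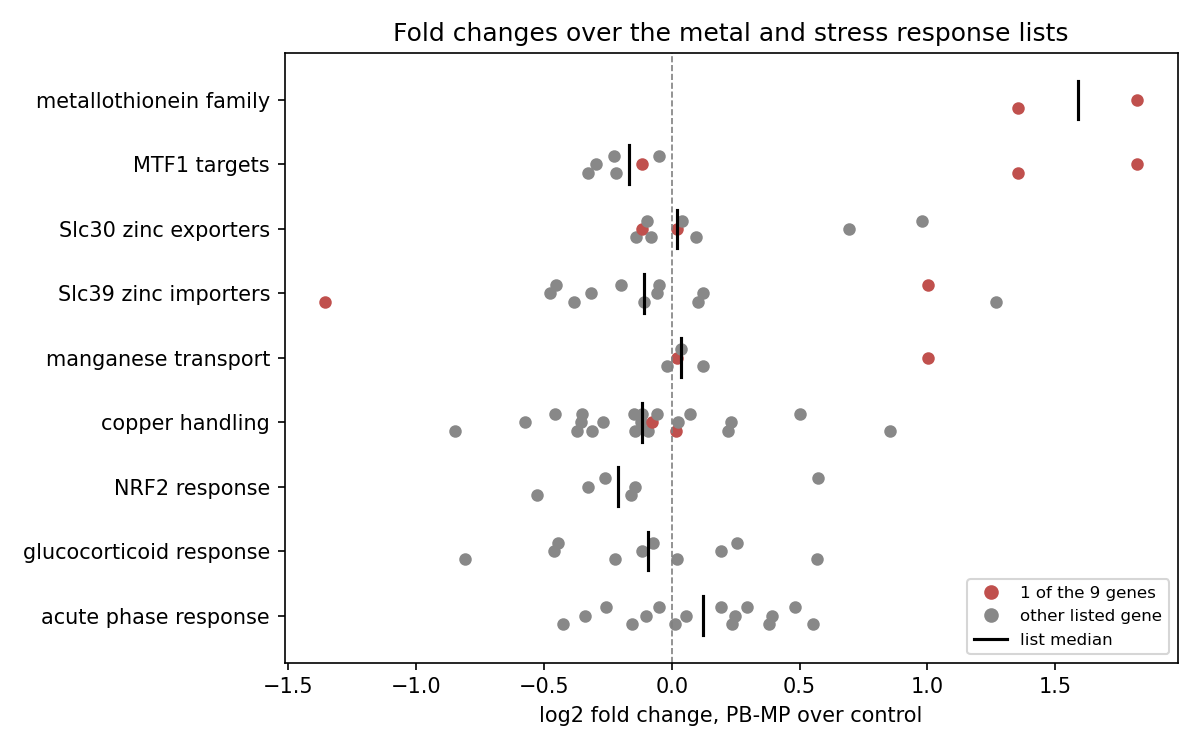
Log2 fold change, PB-MP over control, of each tested gene in the 9 lists, with the 9 genes in red, the other genes in grey and the median of each list as a vertical line; points are spread vertically so that they can be told apart. Mt1 and Mt2 stand at 1.36 and 1.82 and the other 6 MTF1 targets lie below 0, but the intervals of all these targets include 0. The medians of the lists other than the metallothionein family lie between -0.21 and 0.12.

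The libraries held 70603124 to 90483598 counted reads in PB-MP and 68357478 to 112566641 in control livers. Hepatocyte markers summed to 60780 to 71478 CPM in PB-MP and 56544 to 68520 CPM in control libraries, so the defining genes of the labelled tissue were abundant throughout. No marker of another cell type was called by edgeR, and DESeq2 called 4, S100a9 and Marco as higher and Col1a1 and Cfd as lower. All 4 tested granulocyte markers of 5 were higher without overlap, against 11.4% of all genes tested, with a summed level of 3.04 to 5.61 CPM in PB-MP and 1.17 to 1.74 CPM in control libraries. All 5 Kupffer cell markers had estimates above 0, 2 of them without overlap, with sums of 99.3 to 218 CPM in PB-MP and 77.8 to 102 CPM in control libraries. Of 5 stellate cell markers 4 had estimates below 0, 2 of them without overlap (8.49% of all genes), with sums of 154 to 264 CPM in PB-MP and 262 to 283 CPM in control libraries. All 5 lymphocyte markers had estimates below 0, 1 of them without overlap, with sums of 8.66 to 11.6 CPM in PB-MP and 9.60 to 23.3 CPM in control libraries. Of 5 adipocyte markers 2 were tested, Cfd and Fabp4, and they had opposite signs. Cfd was lower without overlap (8.49% of all genes). Its log2 fold change was -3.11 ± 0.65 (SE), with an adjusted p of 0.207 by edgeR and 3.15e-05 by DESeq2. Fabp4 had a log2 fold change of 0.26 ± 0.32 (SE) and overlapping groups. In bulk liver, fewer cells of a type and less RNA per cell cannot be told apart. The part of cell composition in the levels of the 9 genes was not tested.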

How the data were processed

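Poly(A)-selected liver RNA was sequenced from a directional kit, per the labels' protocols. Only bcl2fastq and the build GRCm39 are named, in the submitters' processing notes. The aligner, counter, annotation and strand setting are not stated there or in the labels. As deposited by the authors, the values are raw, unnormalized read counts for 56674 gene rows, and the 6 single files were identical to the columns of the table. Of the rows, 939 shared 67 names with others and held 0.0308% of reads.

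Groups were taken from the labelled diet. The function filterByExpr (minimum count 10, minimum total 15) left 17871 genes, which included all 9 followed here. These were scaled by TMM and tested with the quasi-likelihood test of edgeR 4.0.16 in R 4.3.3, with Benjamini-Hochberg adjustment over all genes. Fold changes are PB-MP over control. The SE comes from the F statistic as the size of the log2 fold change over sqrt(F), and 95% intervals use the t quantile. Ranges within groups are on log2 of CPM plus 0.01, and profile distances on log2 CPM with a prior count of 2. The exact permutation test covered 10 divisions of the libraries. No pair of libraries within a group agreed within sampling noise (the pairs between groups were not compared).

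The 9 genes, the lists and the alternatives were chosen with earlier results of these data known. Beside the 9, the text names up to 3 other genes per list by smallest p among those averaging 1 CPM or more, the nearest profiles (5 for Mt1 and Mt2, 2 for the others), genes overlapping exons of the 9, and others marked as named after their values were seen. Slc39a1 was named for its lack of overlap. GENCODE M21 on GRCm38, which names 50711 of the rows, gave transcript lengths, exon overlaps and shared sequence, and RefSeq gave promoters. Alternatives were other scalings and filters, DESeq2 1.42.0, limma-voom 3.58.1 with and without quality weights, robust estimation, a replicate block and libraries left out. Of 51 listed cell type markers, 50 matched a row.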

Additional observations from a re-analysis of the deposited data

How the results depend on the processing

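None of the 9 genes passed an adjusted p below 0.05 under any of 17 alternatives, or below 0.1 in the edgeR test. Over all genes the count past the threshold was 0 by edgeR, 513 by DESeq2, 2 with PB-MP replicate 3 and control replicate 2 both left out, and 0 to 1 with single libraries left out, the 1 being without control replicate 1. The number of the 9 genes at an unadjusted p below 0.05 was 2, against 4 by limma-voom with quality weights and 0 to 3 with single libraries left out. The share of all genes below that p was 12.1%, against 23.4% with quality weights and 7.92% to 17.8% with single libraries left out. The count was 0 without PB-MP replicate 2 or control replicate 1. It was 1 without PB-MP replicate 1, PB-MP replicate 3 or control replicate 2, and 3 without control replicate 3. Where it was 2, the genes were not always Mtf1 and Slc39a5. They were Mt1 and Slc39a5 by DESeq2, and Mt2 and Slc39a5 with library size only, without a filter, or with both libraries left out. The share of all genes below that p was 15.8% with library size only, 9.04% without a filter and 23.8% with both libraries left out. By DESeq2 it was 4.52% of all rows, rows without reads included. Mt1, Mt2, Mtf1, Slc39a14 and Slc39a5 kept their sign in all 17 alternatives. The log2 fold change of Slc30a1 was 0.10 with library size only, 0.011 with quality weights, 0.11 with both libraries left out, and -0.27 to 0.093 with single libraries left out. That of Slc30a10 ran from -0.22 to 0.17 with single libraries left out. That of Atp7b was -0.035 by limma-voom and -0.14 to 0.25 with single libraries left out, and that of Cp was 0.14 with library size only and -0.17 to 0.0055 with single libraries left out. The cause was not tested. Library size only moved the median of all genes to 0.23, against 0.01 by TMM.

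With the replicate number as a replicate block the log2 fold change of Atp7b was -0.028 and no gene passed the threshold. The 2 genes below an unadjusted p of 0.05 were then Slc39a14, at a log2 fold change of 1.35, and Slc39a5, as were 10.3% of all genes. By edgeR the unadjusted p was 0.0106 for Slc39a14 (adjusted p 0.416), 0.0163 for Slc39a5 and 0.0857 for Mtf1. The numbers are not shown to pair the libraries: same-numbered libraries had correlated deviations of -0.0869, 0.0935 and 0.0816, and 2 of 3 PB-MP libraries correlated best with their own number. With 3 libraries a group, 2-fold changes of Mt1, Mt2, Slc39a14 and Slc39a5 lie within the intervals. At 39 to 178 reads, Slc39a5 is also the least precisely counted.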
